A study of Mus musculus with 16 samples.

Results

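Small heat shock proteins and BAG co-chaperones were followed as 10 genes, chosen by name: the small heat shock protein genes Hspb1, Hspb2, Hspb6, Hspb8 and Cryab, and the BAG genes Bag1, Bag2, Bag3, Bag4 and Bag5. All 10 were among the 19938 genes compared on the arrays, each read by a probe set that carries only that gene's symbol; Hspb1 has 2 such probe sets, and the brighter was used. Expression was measured on 16 arrays in cultured fibroblasts of mouse embryos, the matrix-producing cells of connective tissue. Control cells were labelled wild type and carried a scramble shRNA; knockdown cells stably expressed an shRNA against Atf5, a stress-responsive transcription factor. Each line was exposed for 8 h to DMSO vehicle or to 1 µM MG132, a peptide aldehyde that blocks the proteasome, on 4 plates per group. One knockdown line is compared with one control line; no source used here gives the promoter of the shRNA or says whether a line is a single clone, so a difference between the lines and an effect of Atf5 cannot be told apart. Bulk RNA also cannot tell fewer cells of a kind from less RNA per cell.

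Small heat shock proteins bind proteins that have begun to unfold, without using ATP, and keep them in a state from which Hsp70 chaperones can refold them. BAG proteins share a domain that docks on the ATPase part of Hsp70 and speeds the release of its client. BAG3 also binds HSPB8 directly, and this complex hands damaged proteins to autophagy, a route that carries more of the load when the proteasome is blocked. Heat shock factors, which bind inverted repeats of the unit GAA in promoters, are the classical activators of the stress-inducible members of both families. HSPB2, HSPB6 and CRYAB are best known from muscle, and CRYAB also from the eye lens.

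Promoter windows from RefSeq (build GRCm38.p6, 250 bases before to 50 after the start site) were found for 7 of the 10 genes in 9 windows; Hspb2, Cryab and Bag4 had none. The windows were searched on both strands. The heat shock element of 3 units, GAANNTTCNNGAA, was in none of them, against 0.603% of all 32851 windows. The 2-unit form GAANNTTC was found in Hspb1 with 2 matches (bases -117 to -110 and -97 to -90 from the start), once in the second Hspb6 window (-120 to -113), once in Hspb8 (3 to 10) and once in Bag3 (43 to 50), against 7.86% of all windows. Its other orientation TTCNNGAA was in none of the 9, against 8.52% of all; both short forms are contained in the 3-unit form. The cAMP response element TGACGTCA (1.79% of all windows) and the CEBP-ATF composite element TGATGNAA (3.97%) were in none, the antioxidant response element core TGACNNNGC (12.4%) was in Bag1 and TATAAA (13.6%) in the second Hspb6 window. Below are the 250 bases before the start of Hspb1, the gene with the largest rise with MG132 and 2 matches, of Hspb6 in its second window, which holds 1 match (MG132 did not raise this gene), and of Bag3, which rose with no match before its start. Capitals mark the 2-unit heat shock elements. A match is a description of the letters and not a shown binding site. The windows lie at chr5:135887669-135887918 (plus strand), chr7:30553051-30553300 (plus strand) and chr7:128523333-128523582 (plus strand).
Hspb1: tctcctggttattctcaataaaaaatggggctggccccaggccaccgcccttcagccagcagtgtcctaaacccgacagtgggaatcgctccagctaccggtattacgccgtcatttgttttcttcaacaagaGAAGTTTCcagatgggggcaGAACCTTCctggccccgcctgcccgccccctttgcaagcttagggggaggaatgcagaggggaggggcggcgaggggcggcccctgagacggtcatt
Hspb6: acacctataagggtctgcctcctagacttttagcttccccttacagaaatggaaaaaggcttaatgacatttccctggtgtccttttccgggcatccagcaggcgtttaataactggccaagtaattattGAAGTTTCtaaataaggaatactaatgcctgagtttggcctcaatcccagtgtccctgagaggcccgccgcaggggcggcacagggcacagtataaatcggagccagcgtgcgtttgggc
Bag3: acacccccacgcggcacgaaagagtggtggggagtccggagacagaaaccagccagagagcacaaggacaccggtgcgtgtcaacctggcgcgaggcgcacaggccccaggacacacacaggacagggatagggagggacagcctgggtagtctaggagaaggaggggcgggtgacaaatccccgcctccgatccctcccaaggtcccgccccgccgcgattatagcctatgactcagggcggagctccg

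The targeted gene was read first. With vehicle, the mean log2 intensity of Atf5 was 8.57 ± 0.10 (SD, n = 4) for control plates against 8.35 ± 0.06 (SD, n = 4) for knockdown plates, a difference of -0.22 ± 0.05 (SE, limma adjusted p = 0.00321), and the difference with MG132 was -0.31 ± 0.05 (limma adjusted p = 0.000148). In these 2 comparisons 17.9% and 20.3% of all genes were called lower, so the Atf5 calls alone cannot settle the labels. Fibroblast markers Fn1 and Col1a1 were bright in each group (means 13.41 to 13.80 and 11.67 to 12.40), whereas Lum and Dcn lay below 8.15, the median over all genes (means 4.69 to 4.85 and 7.30 to 7.56). The mean over 9 markers of striated muscle, where several of the small heat shock proteins are abundant, ran from 7.74 to 8.07 over the 16 arrays; Myod1, Myog and Ckm had group means of 7.22 to 7.84, and of the 9 Tnnt2 was the brightest (10.36 to 11.51). Array medians lay between 7.71 and 7.82. The first principal component of the deviations from group means, called the gradient here, held 37.8% of their variance; across the 16 arrays Hspb2 and Bag3 followed it most (r = -0.70 and -0.62, a description over arrays that share groups). The number of arrays limits the precision here, and p-values reflect the spread between plates, which may be technical.

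**Figure D1:**
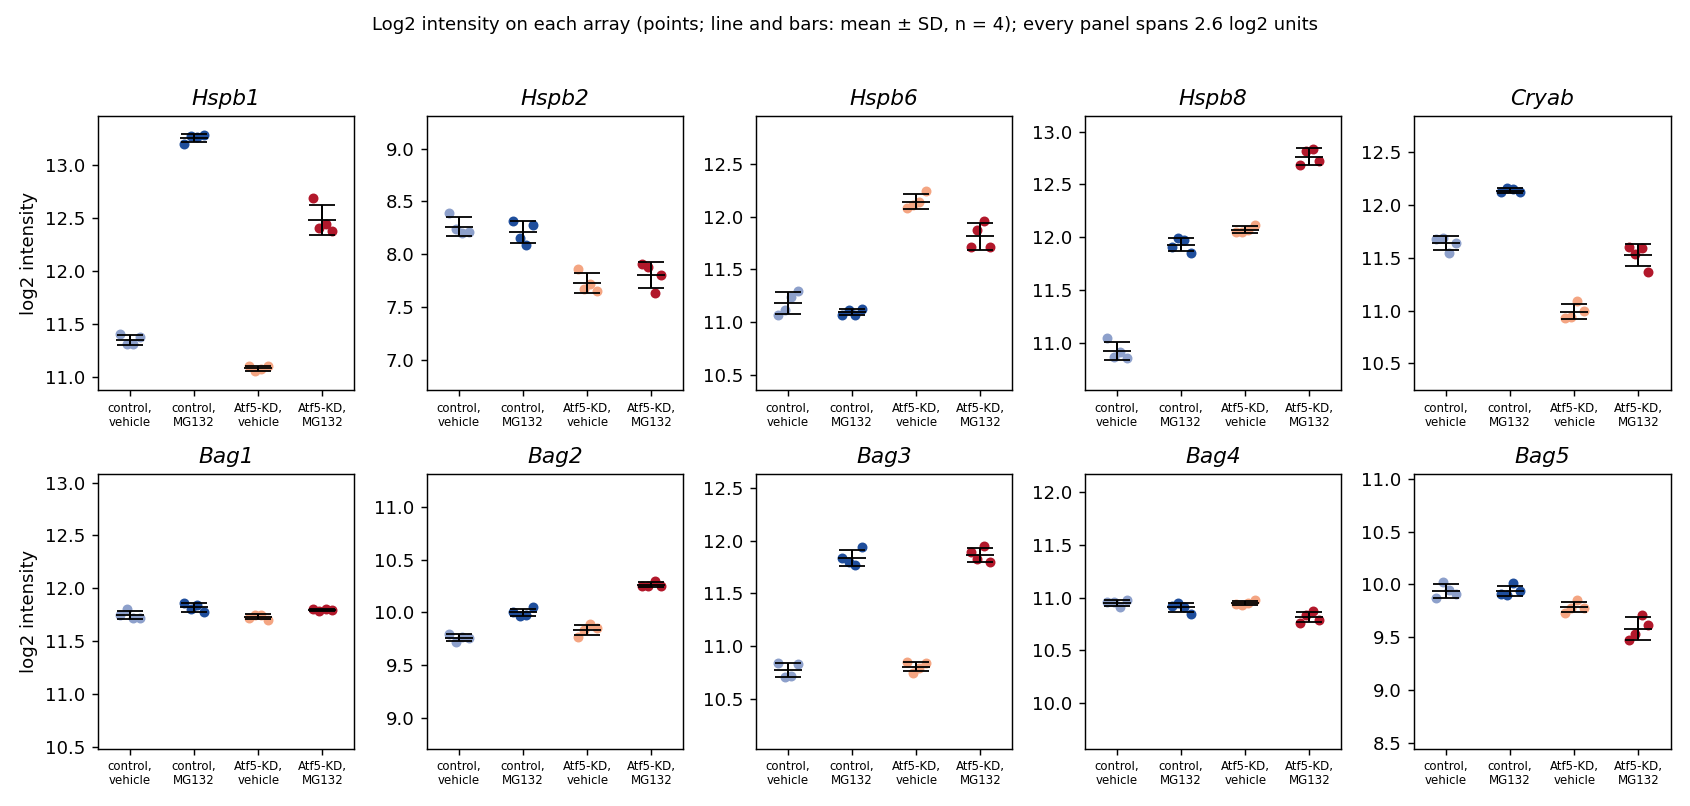
Log2 intensity of the 10 genes on each of the 16 arrays (points) with mean and SD (n = 4), by line and treatment. Hspb1, Hspb8, Bag3, Cryab and Bag2 were higher with MG132 in both lines. Hspb6 and Hspb8 were higher, and Hspb1, Hspb2, Cryab and Bag5 lower, in the knockdown line under both treatments.

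MG132 raised 5 of the 10 genes in control cells and lowered 0 (limma, adjusted p under 0.05; also 0 lower at an unadjusted p under 0.05), against 16.8% of all genes higher and 19% lower. In knockdown cells it raised 5 and lowered 3, against 16.4% higher and 24.3% lower. Each of Hspb1, Hspb8, Cryab, Bag2 and Bag3 rose in both lines. The median log2 change over the 10 genes was 0.15 in control and 0.25 in knockdown cells, beside 0.03 and 0.03 over all genes. With each array centred on its median, 10.8% of all genes were higher and 23.2% lower in control cells, and 9.19% and 29.1% in knockdown cells, while the members called were 5 and 0, and 5 and 3, as before.

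In the comparison of the lines, 2 members were higher and 4 lower in the knockdown with vehicle, against 21.5% and 17.9% of all genes. With MG132, 3 were higher and 5 lower, against 17.7% and 20.3%. The median log2 difference over the 10 genes was -0.01 with vehicle and -0.06 with MG132, beside -0.01 and -0.0025 over all genes. The difference of the 2 responses passed for 3 members, 1 of them higher and 2 lower, against 4.45% and 10.1% of all genes. The comparisons share groups of arrays and are not independent of each other. The 4 arrays lowest on the gradient were control vehicle 1, knockdown vehicle 1, control MG132 4 and knockdown MG132 2. Leaving them out was a choice made after seeing the data. Without them MG132 raised 5 members and lowered 0 in control cells, against 3202 and 3481 of all 19938 genes. In knockdown cells it raised 5 and lowered 3, against 4329 and 4858. Between the lines, 3 were higher and 4 lower with vehicle, against 4219 and 3721 genes. With MG132, 3 were higher and 5 lower, against 3474 and 4067. The difference of responses was higher for 1 and lower for 2, against 969 and 2205. Genes called higher with MG132 in knockdown cells thus went from 3276 to 4329, while members stayed at 5.

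**Figure D2:**
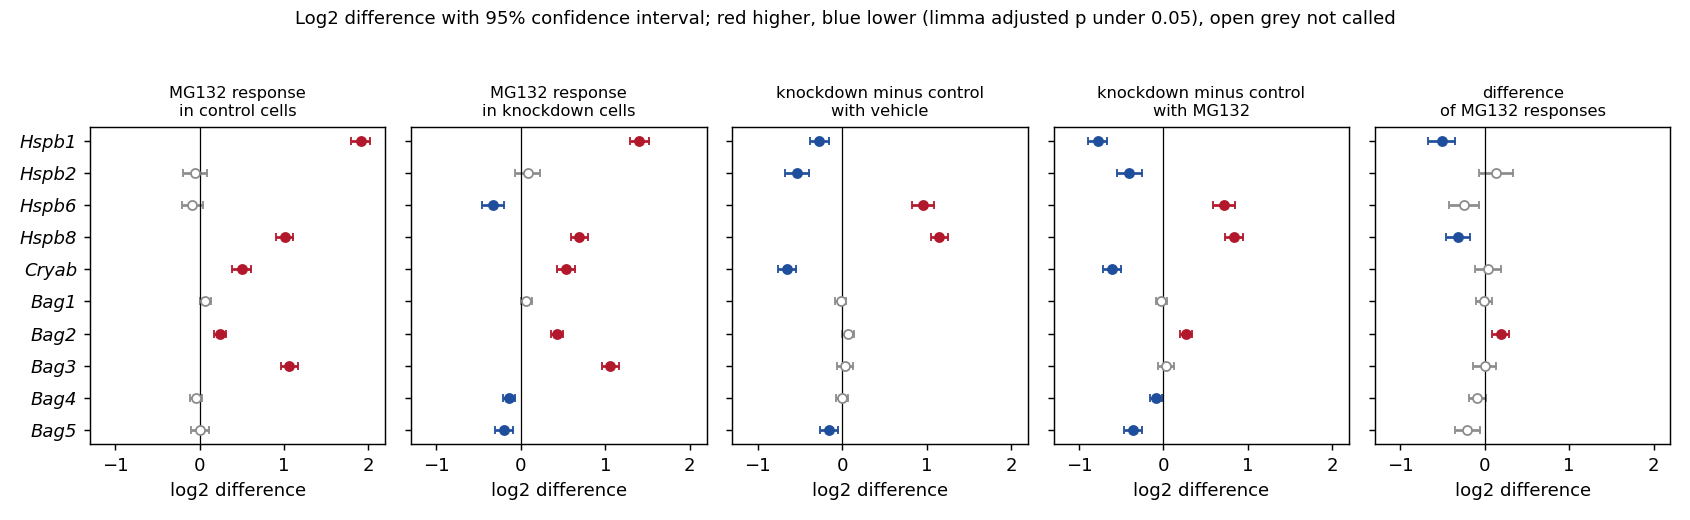
Log2 difference of each gene in the 5 comparisons with its 95% confidence interval from limma; red is higher and blue lower at an adjusted p under 0.05, open grey not called. The first 4 panels share groups of arrays, and the last panel is the knockdown response minus the control response.

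Hspb1 encodes the small heat shock protein known as Hsp25 in mouse, which stabilises actin filaments and holds unfolding proteins. In control cells its arrays read 11.40, 11.31, 11.31 and 11.38 with vehicle and 13.20, 13.28, 13.27 and 13.29 with MG132. In knockdown cells they read 11.10, 11.05, 11.07 and 11.10 with vehicle and 12.69, 12.41, 12.45 and 12.38 with MG132. No array of any group overlapped another group. Hspb1 rose 3.76-fold in control cells (log2 change 1.91 ± 0.05 SE, limma adjusted p = 6.6e-14), the 12th largest increase of the 19938 genes, and 2.64-fold in knockdown cells (1.40 ± 0.05, limma adjusted p = 5.76e-12), the 20th largest. It was 1.21-fold lower in the knockdown line with vehicle (-0.27 ± 0.05, limma adjusted p = 0.000508) and 1.71-fold lower with MG132 (-0.78 ± 0.05, limma adjusted p = 3.03e-09). The knockdown response minus the control response was -0.51 ± 0.08 (limma adjusted p = 0.000296). For each comparison of 4 against 4 arrays in which the groups do not overlap, here and below, the exact two-sided permutation p is 0.0286, the smallest that design allows.

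The second probe set of Hspb1, listed with the same accessions, gave log2 changes of 1.93 ± 0.05 and 1.43 ± 0.05 for the MG132 response of control and knockdown cells and -0.50 ± 0.08 for their difference (limma adjusted p = 0.000997 over all 35556 probe sets). Both may read the same transcript, so they are not separate support, and whether one of them sits at a near-identical copy of the gene was not determined. Gene patterns were compared by the root mean square distance (log2 scale) of group means centred on control vehicle, over the remaining groups. The genes most like Hspb1 were Ypel5 (distance 0.22), Hsph1, an Hsp110 chaperone (0.43), and Dnajb1, an Hsp40 (0.44).

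HSPB8 and BAG3 form the complex that routes clients to autophagy, and both genes rose with MG132. Hspb8 also passed the test between the lines, and Bag3 did not. Hspb8 read 11.05, 10.87, 10.91 and 10.86 with vehicle and 11.91, 11.99, 11.97 and 11.85 with MG132 in control cells. In knockdown cells it read 12.05, 12.05, 12.07 and 12.12 with vehicle and 12.68, 12.82, 12.84 and 12.72 with MG132. All knockdown arrays with vehicle lay above all control arrays with MG132. Hspb8 rose 2.01-fold in control cells (1.01 ± 0.05, limma adjusted p = 6.97e-11) and 1.62-fold in knockdown cells (0.69 ± 0.05, limma adjusted p = 5.5e-09). It was 2.22-fold higher in the knockdown line with vehicle (1.15 ± 0.05, limma adjusted p = 3.37e-12) and 1.78-fold higher with MG132 (0.84 ± 0.05, limma adjusted p = 3.15e-10). The log2 response of the knockdown minus that of the control was -0.32 ± 0.07 (limma adjusted p = 0.00503).

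Bag3 read 10.84, 10.71, 10.72 and 10.83 with vehicle and 11.84, 11.80, 11.77 and 11.94 with MG132 in control cells. In knockdown cells it read 10.85, 10.75, 10.79 and 10.84 with vehicle and 11.89, 11.83, 11.95 and 11.80 with MG132. The treatments did not overlap in either line, and the lines overlapped under both treatments. Bag3 rose 2.09-fold in control (1.06 ± 0.05, limma adjusted p = 2.48e-11) and 2.08-fold in knockdown cells (1.06 ± 0.05, limma adjusted p = 2.52e-11), the 56th and 44th largest increases of all genes. Its line difference was 0.03 ± 0.05 with vehicle (95% confidence interval -0.07 to 0.13, limma adjusted p = 0.664) and 0.03 ± 0.05 with MG132 (-0.07 to 0.13, limma adjusted p = 0.694). The difference of its responses was -0.0025 ± 0.07, with an interval of -0.14 to 0.14, and its sign turned with quantile normalization again (0.005). By the same distance as for Hspb1, the genes most like Bag3 were Fam219a (distance 0.05), Hsph1 (0.10) and Procr, the endothelial protein C receptor (0.10).

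**Figure D3:**
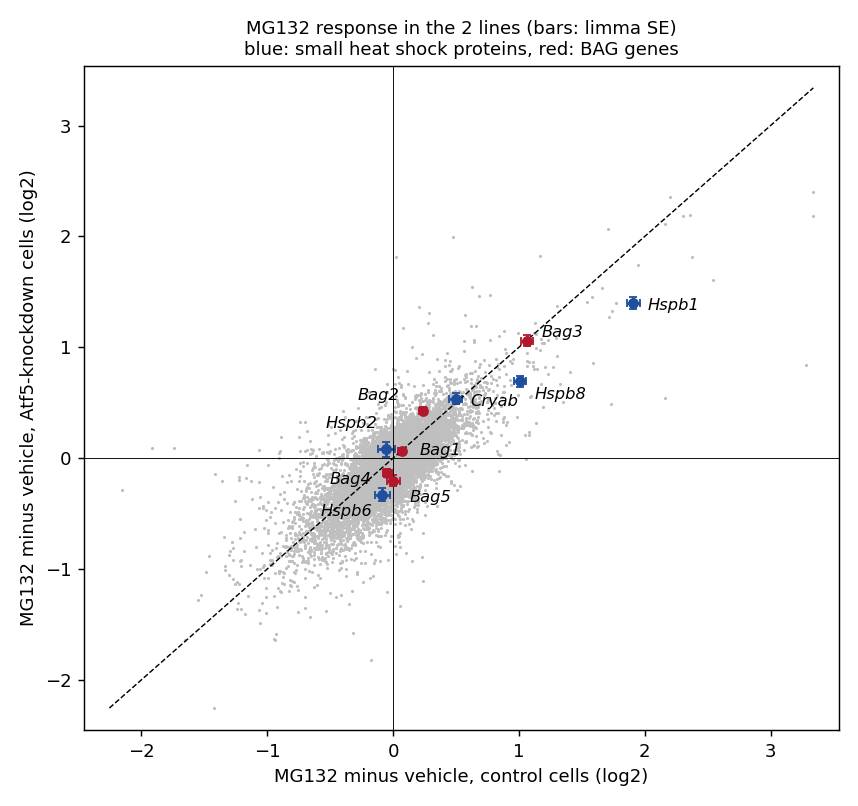
Log2 MG132 response in control cells (x axis) against knockdown cells (y axis) for all 19938 genes (grey) and the 10 genes (blue small heat shock proteins, red BAG genes; bars are limma SE); the dashed line marks equal responses. Bag3 and Cryab lie near the line at 1.06 and 1.06 and at 0.50 and 0.54, while Hspb1 (1.91 and 1.40) and Hspb8 (1.01 and 0.69) lie below it.

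Cryab, which encodes alpha-B crystallin, rose with MG132 in both lines and was lower in the knockdown under both treatments. It read 11.68, 11.69, 11.55 and 11.64 with vehicle and 12.12, 12.16, 12.15 and 12.12 with MG132 in control cells. In knockdown cells it read 10.93, 10.94, 11.09 and 11.00 with vehicle and 11.60, 11.54, 11.59 and 11.37 with MG132. The knockdown arrays with MG132 overlapped the control arrays with vehicle, while the other pairs of groups did not overlap. Cryab rose 1.41-fold in control (0.50 ± 0.05, limma adjusted p = 5.09e-07) and 1.45-fold in knockdown cells (0.54 ± 0.05, limma adjusted p = 1.96e-07). It was 1.57-fold lower in the knockdown line with vehicle (-0.65 ± 0.05, limma adjusted p = 1.26e-08) and 1.53-fold lower with MG132 (-0.61 ± 0.05, limma adjusted p = 3.15e-08). The difference of the responses was 0.04 ± 0.07 (95% confidence interval -0.11 to 0.19, limma adjusted p = 0.817), and -0.0067 without the 4 arrays lowest on the gradient.

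Hspb2 is the neighbour of Cryab on chromosome 9, and its annotated span lies inside that of Cryab in the RefSeq table. Hspb2 was the dimmest member, with a mean of 8.00 over all arrays, above 48% of the genes. It read 8.39, 8.24, 8.20 and 8.21 with vehicle and 8.31, 8.15, 8.09 and 8.28 with MG132 in control cells. In knockdown cells it read 7.86, 7.67, 7.72 and 7.65 with vehicle and 7.91, 7.88, 7.63 and 7.80 with MG132. The lines did not overlap under either treatment, and the treatments overlapped in both lines. Hspb2 was 1.45-fold lower in the knockdown line with vehicle (-0.54 ± 0.07, limma adjusted p = 4.97e-06) and 1.32-fold lower with MG132 (-0.40 ± 0.07, limma adjusted p = 0.000117). Its MG132 response was -0.05 ± 0.07 in control (95% confidence interval -0.20 to 0.09, limma adjusted p = 0.607) and 0.08 ± 0.07 in knockdown cells (-0.06 to 0.22, limma adjusted p = 0.368). Cryab and Hspb2 were thus both lower in the knockdown line, and of the pair Cryab alone passed the test for MG132; whether their responses differ was not tested. Of 9 striated muscle markers, 1 was lower in the knockdown line and 8 were not called, with vehicle and with MG132 (medians -0.01 and 0.0075); the one was Tnnt2 (-0.87 ± 0.05 and -0.74 ± 0.05). Of 5 smooth muscle markers 2 were lower and 3 not called under each treatment (medians -0.08 and -0.04). These were Smtn under both (-0.56 ± 0.04 and -0.44 ± 0.04), Acta2 with vehicle (-0.08 ± 0.03) and Cnn1 with MG132 (-0.32 ± 0.06), while Myh11 and Lmod1 read 0.11 ± 0.04 and 0.18 ± 0.09 with MG132, not called. The mean over the 5 ran from 9.30 to 9.40 in knockdown and from 9.43 to 9.54 in control arrays with vehicle, and from 9.27 to 9.36 and from 9.34 to 9.50 with MG132. The part of muscle-type expression in the result was not tested.

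Hspb6 encodes a small heat shock protein of smooth and heart muscle that also binds BAG3. It read 11.07, 11.12, 11.24 and 11.30 with vehicle and 11.07, 11.12, 11.07 and 11.13 with MG132 in control cells. In knockdown cells it read 12.08, 12.11, 12.14 and 12.24 with vehicle and 11.71, 11.87, 11.96 and 11.71 with MG132. Every knockdown array lay above every control array, and the treatments overlapped in control cells and not in knockdown cells. The annotated span of Hspb6 overlaps that of Lin37 in the RefSeq table. Hspb6 was 1.95-fold higher in the knockdown line with vehicle (0.96 ± 0.06, limma adjusted p = 6.85e-10) and 1.64-fold higher with MG132 (0.72 ± 0.06, limma adjusted p = 3.79e-08). MG132 lowered it 1.26-fold in knockdown cells (-0.33 ± 0.06, limma adjusted p = 0.000238), and its change in control cells was -0.09 ± 0.06 (95% confidence interval -0.21 to 0.04, limma adjusted p = 0.316). The difference of the responses was -0.25 ± 0.09, which was not called (limma adjusted p = 0.0663). It passed with quantile normalization again (0.0377), with genes above the 25th percentile only (0.0491), with a trended robust prior (0.0261), without control vehicle 4 (0.037) and without knockdown MG132 3 (0.0206), all limma adjusted p.

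Of Bag1, Bag2, Bag4 and Bag5, only Bag2 was called higher with MG132. BAG2 inhibits the ubiquitin ligase CHIP, which otherwise marks Hsp70 clients for the proteasome. Bag2 read 9.80, 9.72, 9.77 and 9.76 with vehicle and 10.00, 9.97, 9.98 and 10.05 with MG132 in control cells, and 9.77, 9.83, 9.89 and 9.85 with vehicle and 10.25, 10.25, 10.30 and 10.25 with MG132 in knockdown cells. Arrays with MG132 were above those with vehicle in both lines, and the lines overlapped with vehicle only. It rose 1.18-fold in control (0.24 ± 0.03, limma adjusted p = 1.93e-05) and 1.34-fold in knockdown cells (0.43 ± 0.03, limma adjusted p = 1.98e-08). The responses differed by 0.19 ± 0.05 (limma adjusted p = 0.0119), a call lost when arrays were centred on their median (0.0528). Bag2 was 1.2-fold higher in the knockdown with MG132 (0.26 ± 0.03, limma adjusted p = 5.43e-06) and did not pass with vehicle (0.07 ± 0.03, limma adjusted p = 0.103); it passed there without knockdown vehicle 1 (0.0381), with array weights (0.0132) and without the 4 arrays lowest on the gradient (0.026).

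Bag5, whose product carries several BAG domains, fell with MG132 in knockdown cells. It read 9.87, 10.02, 9.95 and 9.91 with vehicle and 9.91, 9.90, 10.01 and 9.94 with MG132 in control cells, and 9.73, 9.78, 9.85 and 9.78 with vehicle and 9.47, 9.53, 9.71 and 9.62 with MG132 in knockdown cells. Control arrays of both treatments overlapped, and all knockdown arrays were below all control arrays. The change in knockdown cells was -0.20 ± 0.05 (limma adjusted p = 0.00315), lost with quantile normalization again (-0.12, 0.0602). The line difference was -0.36 ± 0.05 with MG132 (limma adjusted p = 1.45e-05) and -0.15 ± 0.05 with vehicle (limma adjusted p = 0.0206). The latter was lost without control vehicle 2 (0.0754), without knockdown vehicle 1 (0.0583) and with median centring (0.0899). Bag5 changed by 0.0025 ± 0.05 in control cells (95% confidence interval -0.10 to 0.11), a value whose sign turned to -0.05 with median centring. The difference of its responses was -0.21 ± 0.07, which was not called (limma adjusted p = 0.0625); it passed with, among others, genes above the 25th percentile (0.0446) and without knockdown MG132 3 (0.0168).

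Bag4 and Bag1 moved least. Bag4, known as the silencer of death domains because it binds the tumour necrosis factor receptor TNFR1, ran from 10.91 to 10.98 in control and from 10.93 to 10.98 in knockdown cells with vehicle. With MG132 it ran from 10.85 to 10.95 in control and from 10.76 to 10.87 in knockdown cells, so the lines overlapped under both treatments. It fell in knockdown cells (a log2 change of -0.14 ± 0.03, limma adjusted p = 0.00344), and its change in control cells was -0.05 ± 0.03 (limma adjusted p = 0.342). The line difference with MG132 was -0.09 ± 0.03 (limma adjusted p = 0.0378, exact two-sided permutation p = 0.0571). That call did not hold when control MG132 1, 2 or 3, or knockdown MG132 1 or 4, was left out, nor with median centring, with only the groups compared or with the replicate number as a block (limma adjusted p from 0.064 to 0.178).

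Bag1 links Hsp70 to the proteasome and binds BCL2. It ran from 11.70 to 11.86 over all 16 arrays, the narrowest range of the members. Its treatments overlapped in control cells and not in knockdown cells. Its MG132 response was 0.07 ± 0.03 in control cells (95% confidence interval 0.0046 to 0.14, limma adjusted p = 0.0928) and 0.06 ± 0.03 in knockdown cells (-0.0029 to 0.13, limma adjusted p = 0.121). The first passed in 4 alternatives: a trended robust prior (0.042), array weights (0.0252), without control vehicle 2 (0.0494) and without control MG132 4 (0.0493). The line differences were -0.02 ± 0.03 with vehicle (-0.08 to 0.05) and -0.03 ± 0.03 with MG132 (-0.09 to 0.04), neither called (limma adjusted p = 0.731 and 0.608).

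A difference of log2 responses is the log2 of a ratio of fold changes, and the lines started from different levels. The responses were therefore also set out in linear intensity after turning the values back from log2. That alternative was added after seeing the data and is given with no test. For Hspb1 the gain with MG132 was 7201 ± 144 (SE) units in control and 3579 ± 294 in knockdown cells, smaller in the knockdown on this scale as on the log2 scale. For Hspb8 the gain was 1961 ± 104 in control and 2660 ± 193 in knockdown cells, larger in the knockdown by 699 ± 219, while the log2 contrast was -0.32. For Cryab the gains were 1312 ± 76.6 and 917 ± 118, a difference of -395.2 ± 141 where the log2 difference was 0.04. The gain of Bag3 was 1910 ± 104 and 1947 ± 91.3, and that of Bag2 was 155.5 ± 16.1 and 314.7 ± 19.1. The direction of the difference of responses therefore depended on the scale for Hspb8, whose log2 difference passed. For Cryab and Bag3 the signs also differed between the scales, but their log2 differences did not pass and were smaller than their SE. The linear difference of Bag3 (37.14 ± 139) was smaller than its SE as well, so no direction can be read for it.

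**Figure D4:**
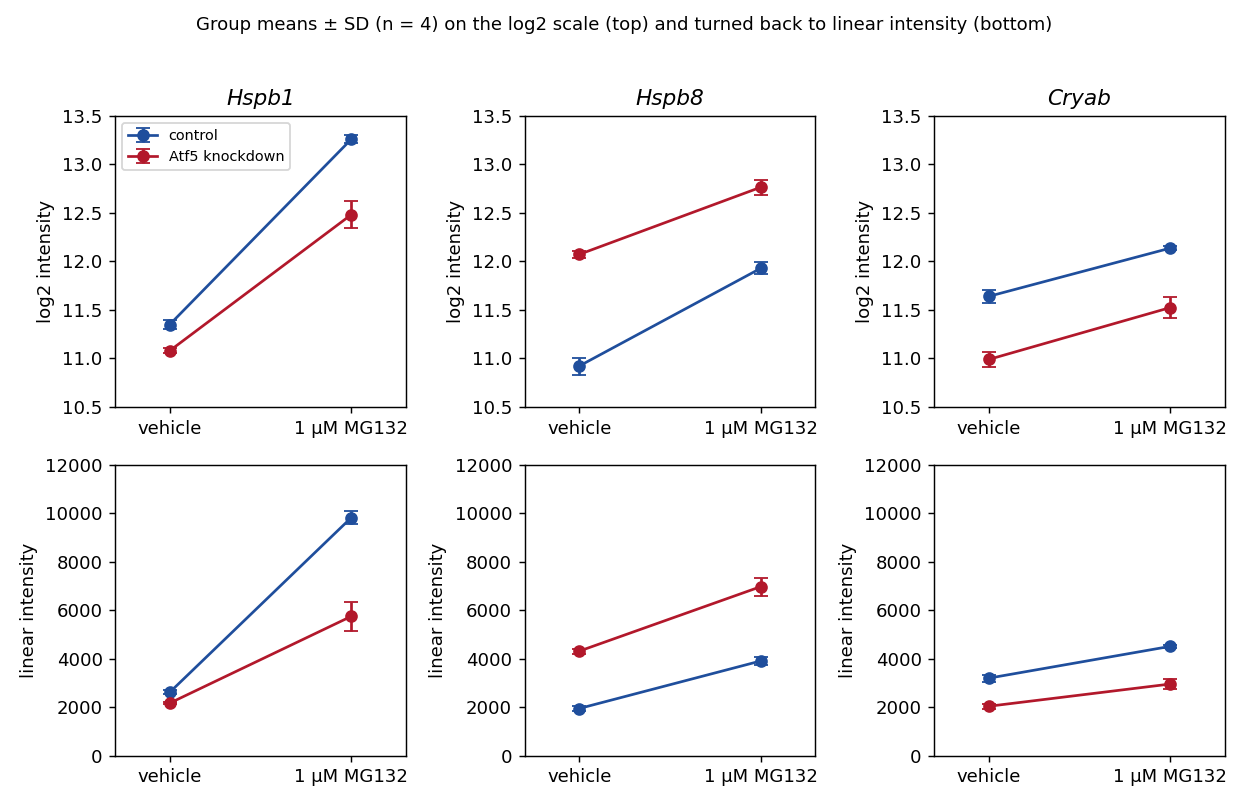
Group means ± SD (n = 4) of Hspb1, Hspb8 and Cryab with vehicle and 1 µM MG132 in both lines, on the log2 scale (top) and as linear intensity (bottom, from 0). The Hspb8 line of the knockdown is flatter than that of the control at the top (0.69 against 1.01) and steeper at the bottom (2660 against 1961).

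Further members of both families were taken as a list of 7 (Hspb3, Hspb7, Hspb9, Hspb11, Cryaa, Odf1 and Bag6). MG132 raised 3 of the 7 in control cells, where 16.8% of all genes rose: Cryaa (0.20 ± 0.06, limma adjusted p = 0.0129), Odf1 (0.11 ± 0.04, limma adjusted p = 0.0388) and Bag6 (0.08 ± 0.03, limma adjusted p = 0.0485). In knockdown cells 0 rose (limma; at an unadjusted p under 0.05 it was 1, Hspb3) and 1 fell, against 16.4% and 24.3% of all genes; the one was Hspb11 (-0.36 ± 0.05, limma adjusted p = 2.4e-05), a ciliary transport subunit that is no heat shock protein by function. Hspb11 was also the 1 of the 7 whose responses differed (-0.37 ± 0.07, limma adjusted p = 0.0029), where 10.1% of all genes were lower. The line differences passed for 1 with vehicle, Hspb9, and for 2 with MG132, Hspb9 and Hspb11, all lower in the knockdown, against 17.9% and 20.3% of all genes lower.

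The listed partners of these genes, heat shock factors, Hsp70 and Hsp40 chaperones and the machinery of selective autophagy, were tested for 20 of 22. Hsf1 and Hspa1b were not among the genes tested, so Hsf2 alone stands here for the heat shock factors. The list was written with earlier results of these data known. MG132 raised 13 and lowered 1 in control cells, against 16.8% and 19% of all genes, and raised 14 and lowered 2 in knockdown cells, against 16.4% and 24.3%. The median log2 change was 0.17 in each line, beside 0.03 over all genes. Hsf2, a heat shock factor, rose by 0.83 ± 0.05 and 0.85 ± 0.05 (limma adjusted p = 1.22e-09 and 1.01e-09). Hspa1a, the inducible Hsp70, rose by 3.29 ± 0.06 in control and 0.84 ± 0.06 in knockdown cells, and its responses differed by -2.45 ± 0.08 (limma adjusted p = 7.55e-12). Sqstm1, the autophagy receptor p62 that acts with BAG3, rose by 1.18 ± 0.03 and 1.04 ± 0.03, and Dnajb2, an Hsp40 of the same route, by 0.74 ± 0.04 and 0.64 ± 0.04. Stub1, which encodes CHIP, fell in knockdown cells (-0.16 ± 0.04, limma adjusted p = 0.00736), and Tfeb, a regulator of lysosome genes, fell in both (-0.29 ± 0.05 and -0.22 ± 0.05). The responses differed for 5 of the 20, all lower in the knockdown, where 10.1% of all genes were lower: Hspa1a, Hsph1 (-0.17 ± 0.04), Dnajb1 (-0.46 ± 0.05), Map1lc3b (-0.24 ± 0.05) and Hdac6 (-0.34 ± 0.06). Between the lines, 5 were higher and 7 lower in the knockdown with vehicle, against 21.5% and 17.9% of all genes, and 3 higher and 9 lower with MG132, against 17.7% and 20.3%.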

How the data were processed

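Total RNA of 16 plates was labelled and hybridised to Affymetrix whole-transcript arrays, 1 per plate. The values are log2 probe set intensities with 2 decimals, deposited by the authors as 1 table; the submitters' processing notes name Partek and RMA, whose versions and settings the sources used here do not give. RMA equalises array distributions, and very dim or bright probe sets can be compressed. Groups and replicate numbers come from the titles.

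Of 35556 probe sets, 21789 carried 1 gene symbol in the platform annotation, giving 19938 genes; where a gene had several, the probe set with the highest overall mean stood for it. limma 3.58.1 (R 4.3.3) fitted 1 mean per group to all 16 arrays (lmFit and eBayes). Tests were two-sided, residual degrees of freedom were 12 and prior ones 4.12. Neither filter nor block was used, with Benjamini-Hochberg adjustment over all genes (threshold 0.05). Single members were also compared by exact permutation. The fit was tested on simulated data with independent noise for each gene and array. Those data lacked the gradient and any correlation between arrays, so that test does not cover either. The 10 members and the related lists were chosen with earlier results of these data known. Replicate numbers were not used as pairs, since the labels do not say what they mark and not every same-numbered pair deviated together. Promoter sequences are RefSeq's. Alternatives covered scaling, filters, probe set choice, prior, array weights, block and left-out arrays. Figures were made in matplotlib 3.10.9 under Python 3.11.15.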

Additional observations from a re-analysis of the deposited data

Results flagged for a closer look

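The MG132 responses of the lines differed by the test of the difference itself for 3 of the 10 genes, 1 higher and 2 lower, against 4.45% and 10.1% of all genes. On the log2 scale, the knockdown response minus the control response was -0.51 for Hspb1 (limma adjusted p = 0.000296), -0.32 for Hspb8 (limma adjusted p = 0.00503) and 0.19 for Bag2 (limma adjusted p = 0.0119). The call of Bag2 was lost with median centring (limma adjusted p = 0.0528). In Hspb1 and Hspb8 all 4 arrays with MG132 were above all 4 with vehicle in each line.

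Bag2 on knockdown MG132 array 3 stood apart from its group at 10.30, where the other arrays all read 10.25. The gap of 0.05 is small beside the group differences and the values are rounded to 2 decimals. It was the only 1 of 40 sets of 4 arrays to do so, and chance gives about 1 in 20.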

How the results depend on the processing

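Hspb1, Hspb8, Cryab, Bag2 and Bag3 kept their rise with MG132 in both lines under every alternative run, and Hspb1, Hspb2, Hspb6, Hspb8 and Cryab kept their line differences. The count of members whose responses differed moved most. Members called lower there were 2, against 2015 of all 19938 genes. They were 4 with genes above the 25th percentile (2223 of 14953 genes) and with a trended robust prior (2263 of 19938). With the gradient as a covariate they were also 4 (2795 of 19938). On leaving out single arrays they were 2 to 4, against 1520 to 2401 of all genes. Members called higher were 1 (4.45% of all genes), but 0 with median centring (3.44%). The gradient was built from the spread within groups, so adjusting for it could not change any log2 difference, only the SE and the calls. The Hspb6 difference of responses stayed at -0.245, while all genes called higher with MG132 in control cells went from 3341 to 4358. For the results kept above, that setting is therefore no check on size or sign. The same holds for the filters on mean intensity, testing every probe set, fitting only the groups compared, the trended robust prior and the replicate block. Leaving out an array of a group not compared also could not change a log2 difference. Averaging probe sets could act on Hspb1 alone, the only member with 2. Among the other counts on leaving out single arrays, 5 to 6 members were higher with MG132 in control cells, against 2883 to 3513 of all genes. Between the lines with vehicle 2 to 3 were higher and 3 to 4 lower, against 3990 to 4419 and 3200 to 3780 genes. Between the lines with MG132 4 to 5 were lower, against 3684 to 4168 genes.

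On the log2 scale, signs turned only in results that passed under no setting run. The Bag5 response in control cells was -0.05 with median centring, -0.0063 with array weights, -0.02 without the 4 arrays lowest on the gradient and -0.0208 to 0.03 without single arrays. The Bag1 and Bag4 line differences with vehicle were 0.005 and 0.02 with median centring; that of Bag4 was 0.0033 without the 4 arrays and -0.0167 to 0.0067 without single arrays. The difference of responses was 0.005 (quantile normalization again), 0.0174 (array weights), 0.0367 (without the 4 arrays) and -0.03 to 0.0317 (single arrays) for Bag3, -0.0067 for Cryab without the 4 arrays, and -0.025 to 0.0067 for Bag1 without single arrays. In linear intensity, not tested, it was 699 ± 219 (SE) for Hspb8, whose log2 value passed in every log2 alternative run, -395.2 ± 141 for Cryab and 37.14 ± 139 for Bag3, opposite in sign to the log2 values.

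Same-numbered arrays deviated together in part: 10 of 24 pairs had a correlation over 0.1 (range -0.501 to 0.396), and 8 of 16 arrays correlated best with their own number, a hint from the data and not from the design. With 4 numbers to match, some arrays would do so by chance. Control vehicle against control MG132 gave 0.032, 0.335, 0.276 and 0.329 for numbers 1 to 4, the highest set of the group pairs. Control MG132 against knockdown MG132 gave 0.083, -0.245, 0.098 and -0.2. Since not every pair passed 0.1 and the labels do not say what a number marks, the numbers were not taken as pairs. The replicate number as a block gave 7067, 8162, 7766, 7498 and 2668 called genes in the 5 comparisons in order, against 7137, 8124, 7848, 7588 and 2903 without it; with the block, members called were 5, 8, 6, 7 and 4, against 5, 8, 6, 8 and 3, since Bag4 was lost (limma adjusted p = 0.064) and Bag5 gained (limma adjusted p = 0.0307). The cause of these changes was not tested.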

Other observations

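Of 14 listed kinases, clients and binding partners of these chaperones, 11 were tested; the list was written with earlier results of these data known. With vehicle 4 were higher and 4 lower in the knockdown, against 21.5% and 17.9% of all genes, and with MG132 4 and 4, against 17.7% and 20.3%. MG132 raised 1 and lowered 4 in control cells, against 16.8% and 19%, and raised 1 and lowered 3 in knockdown cells, against 16.4% and 24.3%. The responses differed for 0 (limma; 2 at an unadjusted p under 0.05, Mapk14 and Bcl2), against 4.45% higher and 10.1% lower. Prkd1, a protein kinase that can phosphorylate HSPB1, was lower in the knockdown line (-1.27 ± 0.05 with vehicle, -1.27 ± 0.05 with MG132, limma adjusted p = 1.7e-12 and 2.29e-12). Tnfrsf1a, the receptor TNFR1 that BAG4 binds, was higher there (0.81 ± 0.05 and 0.75 ± 0.05, limma adjusted p = 7.46e-10 and 2.51e-09). Bcl2, a survival gene whose product BAG1 binds, fell with MG132 (-1.01 ± 0.04 in control and -1.17 ± 0.04 in knockdown cells, limma adjusted p = 3.36e-12 and 7.76e-13) and was lower in the knockdown line (-0.55 ± 0.04 with vehicle). Mapk14, the p38 kinase upstream of HSPB1 phosphorylation, fell in both lines (-0.39 ± 0.04 and -0.21 ± 0.04, limma adjusted p = 7.16e-07 and 0.000359).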
